A study of Rattus norvegicus with 42 samples.

Results

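The genes described here code for collagens, laminins, integrins and a few further matrix proteins, and their transcripts were followed in the hippocampus of rat pups after phenobarbital (PB) or levetiracetam (LEV). Members were all transcripts of the count table whose gene symbol is that of a collagen chain (Col), a laminin chain (Lama, Lamb or Lamc) or an integrin subunit (Itga or Itgb), or is Fn1, Nid1, Nid2, Hspg2, Sparc, Smoc1 or Smoc2. This rule found 61 transcripts of 59 symbols among 15516 transcripts, and 56 of them passed the filter on low counts. The 5 that did not pass were Col17a1, Col4a4, Itga10, Itgb3 and Itgb7. Nid1 and Hspg2 are named in the rule but were not in the count table. Sprague Dawley pups, described as male, received a single intraperitoneal dose of saline (VEH), PB at 75 mg/kg or LEV at 200 mg/kg on postnatal day 7. Each litter contributed 1 pup to a treatment group, so that the groups share litters, but which pups were littermates was not given in the sources used here. Hippocampi were taken 72 h later, after perfusion, and 1 RNA library was sequenced for each pup. The sample codes have 2 forms, which divide every group into animals 1 to 6 (the first series) and animals 7 to 14 (the second series). Apart from a VEH animal marked as excluded in the labels, the groups held 13 (VEH), 14 (PB) and 14 (LEV) animals.

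Collagens and laminins are secreted proteins that assemble outside the cell. Fibrillar collagens form the fibers of connective tissue, which in the brain is found in the meninges, along larger vessels and in the choroid plexus. Type IV collagen, laminins and nidogens form the basement membranes that surround blood vessels and lie beneath the pia, and integrins are the receptors, each a pair of an alpha and a beta subunit, by which cells bind them.

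The totals per animal were 9499492 to 14488134 estimated counts in VEH, 9586794 to 13140913 in PB and 10112050 to 12482915 in LEV pups. Values below are normalized counts, which are the counts scaled to a common library size. They can be compared between animals for one transcript but not between transcripts, because transcript lengths were not used here. The 10 symbols of a list of hippocampal neuron markers were all in the table, with a mean summed level of 37804 normalized counts in VEH, 34423 in PB and 37063 in LEV pups. VEH animal 1 had a sum of 1 count over the Y-linked transcripts, while the other 40 animals had 1243 to 1919. Its library is therefore not that of a male, although the study describes the pups as male. The excluded VEH animal had a sum of 319. Without VEH animal 1, the same 4 members were called after PB, 0 after LEV and 0 between the drugs. The summed level of choroid plexus markers, with Ttr, Kl and Folr1 among them, ranged from 730.0 to 93017, and the median was 5287 for VEH, 10964 for PB and 25670 for LEV. In bulk tissue, fewer cells of a type and less RNA per cell cannot be told apart.

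PB was compared with VEH to find the matrix transcripts that differ 3 days after exposure. Members rose in 4 of 56 tests and fell in none: the fibrillar collagen chains Col11a1 and Col27a1, the fibril-associated collagen chain Col16a1, and Smoc2, a secreted calcium-binding protein of basement membranes. All 4 counted as called because their adjusted p was under 0.05 and their fold change at least 1.25 (quasi-likelihood test of edgeR, with p values adjusted by the Benjamini-Hochberg method over the 13062 tested transcripts). Of all tested transcripts, 0.605% were called in either direction and 0.345% were called higher. Without the fold limit the same 4 members (7.14%) passed, against 5.39% of all tested transcripts. The study had already reported Smoc2 and Col16a1 as higher after PB in these data. Members were chosen with earlier results known, so that these shares are a description only. At an unadjusted p under 0.05, however, 9 members (16.1%) passed, against 20.2% of all tested transcripts. The median log2 fold change of the 56 members was 0.07, and 43 of them had a positive value, while the median over all tested transcripts was 0.00 and 51.9% of these were positive. Markers of other cells also moved after PB. All 15 tested choroid plexus marker transcripts had a positive value (median 0.54), although none was called. Fits with the choroid plexus or leptomeningeal level as a covariate are given below. The part of the neuron, astrocyte, oligodendrocyte and endothelial markers in the values of the members was not tested. Of the 12 neuron marker transcripts, 11 had a negative value after PB (median -0.13), and Camk2a, a kinase of excitatory neurons, passed without the fold limit (-0.26, adjusted p = 0.0364, edgeR). Of 19 astrocyte marker transcripts, Gfap, an intermediate filament of astrocytes, was called higher (0.32, adjusted p = 0.00241), while Aldoc and Slc1a3 were lower without the fold limit (-0.16 for both). Of 16 transcripts of the oligodendrocyte lineage, 7 were positive and 9 negative (median -0.05). Only Opalin, a myelin protein, was called, and it was lower (-1.39, adjusted p = 0.0339, edgeR). Its mean normalized counts were low, 19.6 in VEH and 7.28 in PB pups. The mean summed level of this list was 21284 in VEH and 21656 in PB pups. Of 11 endothelial marker transcripts, 9 were negative after PB and all 11 positive after LEV, and none passed against VEH after either drug. Between the drugs all 11 were lower in PB than in LEV pups (median -0.15). Of these only Cldn5 passed, without the fold limit (-0.22, adjusted p = 0.0227, edgeR).

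The 250 bases before the start of 3 of the 4 genes are printed because these members were called together after PB. They are from RefSeq (GRCr8, plus strand, printed 5′ to 3′) and lie at chr2:204508886-204509135 for Col11a1, chr5:81662658-81662907 for Col27a1 and chr5:147672846-147673095 for Col16a1. Capitals mark matches, on either strand, to the letters GGGCGG of a GC box, to CCAAT, and to the letters TATAAA of a TATA box.
Col11a1: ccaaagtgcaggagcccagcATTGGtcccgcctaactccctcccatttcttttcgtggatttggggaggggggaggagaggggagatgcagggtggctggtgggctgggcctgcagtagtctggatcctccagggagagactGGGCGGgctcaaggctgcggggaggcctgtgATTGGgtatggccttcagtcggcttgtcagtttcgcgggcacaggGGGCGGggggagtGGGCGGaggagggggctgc
Col27a1: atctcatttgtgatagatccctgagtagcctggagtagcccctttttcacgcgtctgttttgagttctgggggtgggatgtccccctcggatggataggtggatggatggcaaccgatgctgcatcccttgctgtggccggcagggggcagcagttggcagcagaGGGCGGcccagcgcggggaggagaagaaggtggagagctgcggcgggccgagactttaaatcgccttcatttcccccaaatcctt
Col16a1: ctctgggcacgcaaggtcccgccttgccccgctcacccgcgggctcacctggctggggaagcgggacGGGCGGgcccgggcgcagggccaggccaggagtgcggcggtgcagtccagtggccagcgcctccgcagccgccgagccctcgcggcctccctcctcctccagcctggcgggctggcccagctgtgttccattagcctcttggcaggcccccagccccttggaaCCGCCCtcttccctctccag
All 3 windows hold the GC box letters, with 3 matches before Col11a1, 1 before Col27a1 and 2 before Col16a1, and no matches overlap. The CCAAT letters occur, 2 times, only before Col11a1 among these 3, and TATAAA occurs in none. Of 33469 RefSeq windows of the same length, 30.5% hold the GC box letters, 34.0% the CCAAT letters and 12.9% TATAAA. A promoter entry was found for 43 of the 59 member symbols, and the GC box letters are in 48.8% of those. The windows are rich in G and C, with 65.6%, 58.8% and 74.8% for the 3 genes in the order printed, against a median of 51.2% over all windows. The letters are a description only.

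Fibrillar collagens were represented by 11 transcripts, of which 2 rose after PB. Col11a1 (NM_013117, rn6 chromosome 2, 216863428 to 217056524) codes for a minor chain that is built into fibrils of the major collagens. Its lowest, median and highest normalized counts were 154, 261 and 380 in VEH, 287, 351 and 483 in PB, and 257, 311 and 446 in the LEV group. The PB and VEH groups overlapped, but 13 of 14 PB animals were above the VEH mean of their own series, and 7 VEH animals were below the lowest PB animal. The log2 fold change was 0.40 ± 0.10 (SE), with an adjusted p of 0.0139 in the quasi-likelihood test of edgeR. Within the series the value was 0.19 for animals 1 to 6 and 0.57 for animals 7 to 14, a difference of 0.38 ± 0.20 that did not pass the test (adjusted p = 0.480, same test).

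Col27a1 (NM_198747, rn6 chromosome 5, 79055521 to 79170766) codes for a fibrillar collagen best known from cartilage. Normalized counts were 137, 198 and 324 (lowest, median and highest) in VEH, 189, 255 and 516 in PB, and 150, 238 and 438 in the LEV group. Every PB animal lay above the VEH mean of its series, although the ranges of the groups overlapped. The log2 fold change after PB was 0.44 ± 0.11 (SE, adjusted p = 0.0160 in edgeR). Col27a1 also differed between the series, by -0.54 ± 0.09 in the second against the first, and without a term for the series its adjusted p after PB was 0.114. Col1a1, Col1a2 and Col3a1, the main chains of type I and type III fibrils, did not pass. Their log2 fold changes after PB were 0.09 for Col1a1 and 0.14 for Col3a1. The count table lists Col1a2 at 2 places with equal values in 40 of 42 animals, so that its counts are uncertain.

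**Figure D1:**
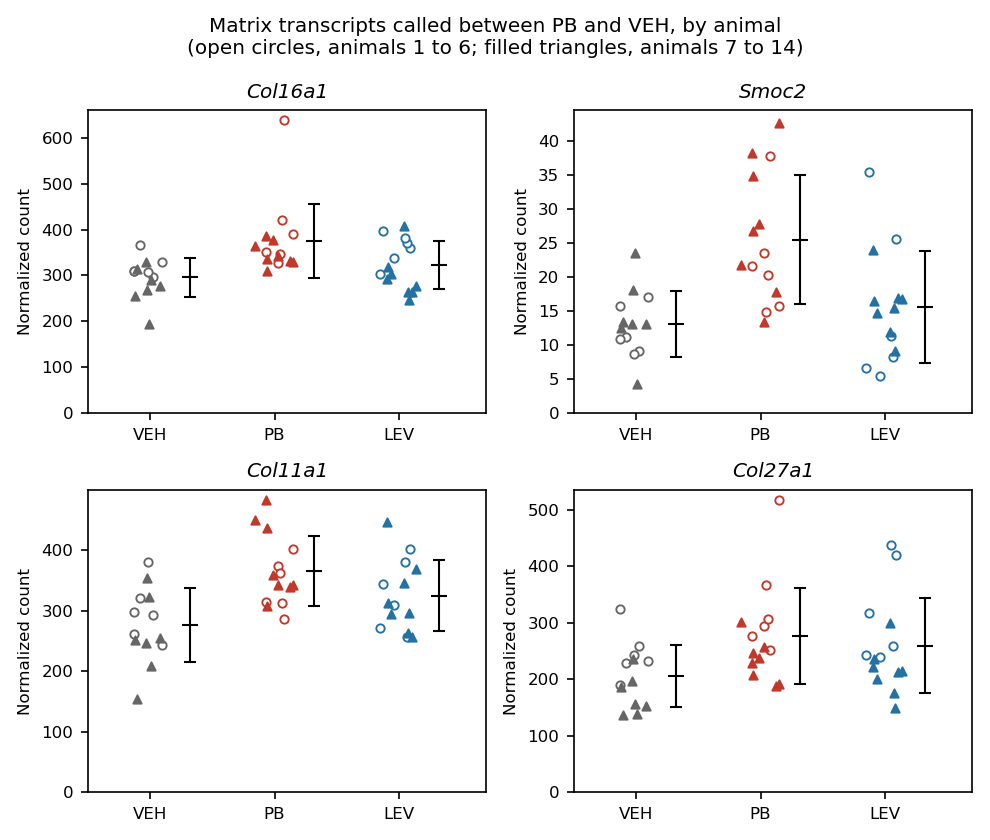
Normalized counts (y axis) of Col16a1, Smoc2, Col11a1 and Col27a1 in every VEH, PB and LEV animal, with open circles for animals 1 to 6, filled triangles for animals 7 to 14, and bars for the mean and SD of the group. The PB values lie higher than the VEH values in each panel while the ranges overlap, and for Smoc2 7 of 14 PB animals lie above the highest VEH animal.

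Among the 12 tested members of the other collagens, only Col16a1 was called. Col16a1 (NM_001302967, rn6 chromosome 5, 148257593 to 148311646) codes for a collagen that lies at the surface of fibrils. Its normalized counts were 195, 307 and 366 in VEH, 309, 350.0 and 638 in PB, and 246, 311 and 408 in the LEV group (lowest, median, highest). All 14 PB animals were above the VEH mean of their series, and the highest value, that of PB animal 2, stood apart from the other PB animals. The log2 fold change was 0.35 ± 0.08 (SE, adjusted p = 0.00581, edgeR). Without PB animal 2 it was 0.28, and without VEH animal 8 it was 0.32, both below the fold limit, with adjusted p values of 0.0102 and 0.0114. Of the rest, Col8a1, a short-chain collagen of vessel and corneal basement membranes, had the largest estimate, 0.75, with a 95% interval of -0.63 to 2.12 that includes 0. Its normalized counts ranged from 0.992 to 236 over the animals. Single animals moved the estimate, to 0.40 without PB animal 3, 0.49 without PB animal 8 and 1.19 without VEH animal 14. Col7a1, the collagen of anchoring fibrils, had the lowest estimate of this group, -0.17.

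Smoc2 (NM_001106215, rn6 chromosome 1, 56242346 to 56373987) had the largest fold change of the called members on the log2 scale, but also low counts. Its normalized counts were 4.29, 13.1 and 23.5 in VEH, 13.3, 22.7 and 42.5 in PB, and 5.51, 15.04 and 35.4 in the LEV group (lowest, median, highest). Of the 14 PB animals, 7 lay above the highest VEH animal and 13 above the VEH mean of their series. The log2 fold change was 0.94 ± 0.23 (SE, adjusted p = 0.0118, edgeR). The related Smoc1 and Sparc, a collagen-binding protein made by glia and vessels, had values of 0.07 and 0.09 and were not called.

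No tested basement membrane collagen, laminin, nidogen, fibronectin or integrin transcript was called after PB. Col4a2, Lamb1, Nid1 and Hspg2 were not in the count table, so that nothing can be said of them. Col4a1, the alpha 1 chain of type IV collagen, had 2141, 2445 and 2646 normalized counts in VEH, 1755, 2374 and 2917 in PB, and 2036, 2449.6 and 2709 in the LEV group (lowest, median, highest). The groups lay over each other, and the log2 fold change after PB was 0.00 with a 95% interval of -0.10 to 0.10. Fn1, which codes for fibronectin, gave -0.01 (interval -0.15 to 0.13). Among the laminin chains, Lama3, a chain of epithelial basement membranes, had 50.4, 102 and 149 normalized counts in VEH, 64.4, 119 and 237 in PB, and 80.1, 126 and 250.1 in the LEV group. Of its PB animals, 5 were above the highest VEH animal and none below the lowest. Its estimate was the largest of the laminins after PB, 0.52 (adjusted p = 0.128), and Lama4, a chain of vessel walls, gave 0.14 (adjusted p = 0.123, both edgeR). Of the integrins, Itga8, the alpha subunit of a receptor for nephronectin and fibronectin, came nearest, with normalized counts of 176, 279.7 and 324 in VEH, 243, 315 and 366 in PB, and 205, 285 and 317 in the LEV group. Its log2 fold change after PB was 0.20 ± 0.07 (SE, adjusted p = 0.0848, edgeR), and 12 of 14 PB animals were above the VEH mean of their series. Itga11, a subunit of a collagen receptor, had -0.21 and Itga1, another, -0.21. Itga3 is listed as 2 transcripts of 1 place, whose reads may be divided between them, and neither was called.

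**Figure D2:**
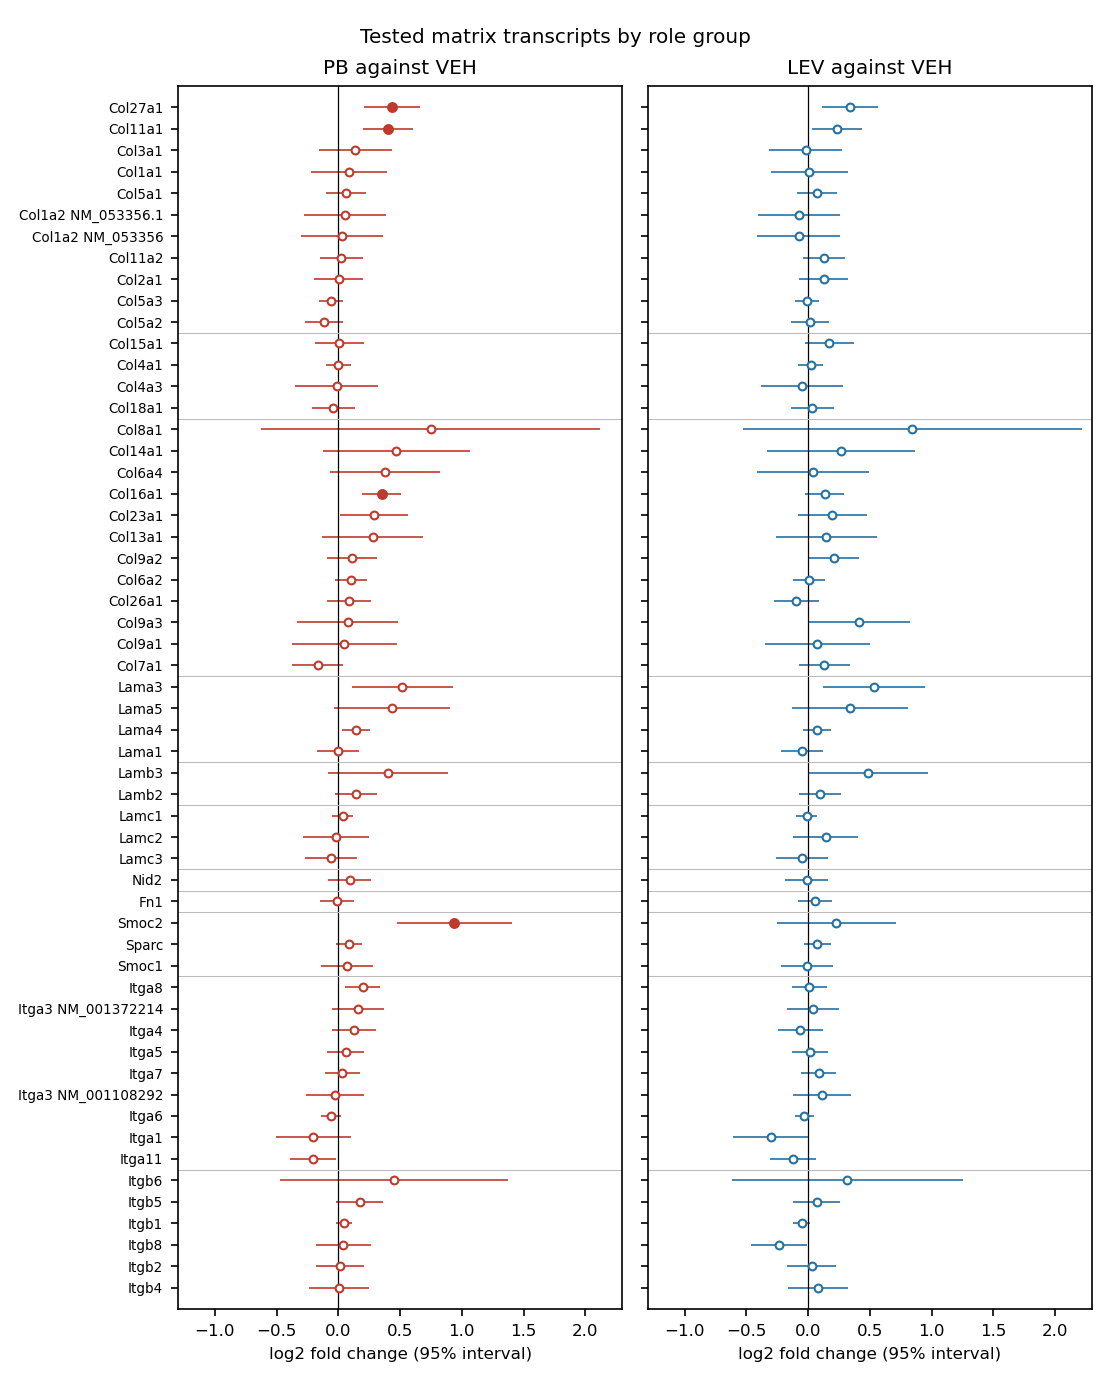
Log2 fold changes (x axis) with 95% intervals of the 56 tested transcripts, PB against VEH on the left and LEV against VEH on the right, ordered by role group (separated by grey lines), with filled points for called transcripts. Only Col27a1, Col11a1, Col16a1 and Smoc2 are filled, all to the right of 0 after PB, and none after LEV.

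LEV was compared with the same VEH animals, so that the results for the drugs share their controls. No member was called after LEV, and neither was any other of the 13062 transcripts (0%, edgeR; 1 transcript, which is no member, passed without the fold limit), while 7 members passed an unadjusted p under 0.05 (12.5%, against 5.84% of all tested transcripts). DESeq2 also called 0 members. The median log2 fold change of the 56 members was 0.06 after LEV, close to that after PB, and 39 of them had a positive value, against a median of 0.00 and 50.2% positive over all tested transcripts. The members with the smallest p were Col27a1 (log2 fold change 0.34), Lama3 (0.53), Col11a1 (0.23), Itgb8 (-0.24) and Col9a3 (0.42), the last a chain of a collagen that coats cartilage fibrils. Col27a1 had an adjusted p of 0.620 (edgeR), and 11 of 14 LEV animals were above the VEH mean of their series. The largest estimates in the positive direction were those of Col8a1 (0.85, interval -0.52 to 2.22), Lama3 and Lamb3, a laminin chain of epithelia (0.49, adjusted p = 0.844). Without VEH animal 14 the value of Col8a1 was 1.33. The lowest estimates were those of Itga1 (-0.30, adjusted p = 0.844), Itgb8 and Itga11 (-0.12, adjusted p = 0.922, all edgeR). The choroid plexus markers were higher in the LEV than in the VEH group on the median (above), with all 15 tested marker transcripts positive and none called after either drug. With their level as a covariate, 0 members were called after LEV.

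The drugs were then compared with each other, which tests directly whether the called members differ between them. No member was called between PB and LEV, where 0.582% of all tested transcripts were, and 8 members passed an unadjusted p under 0.05 (14.3% against 19.6% of all transcripts). DESeq2 also called 0 members. Smoc2 came nearest, with 0.71 ± 0.22 (SE) higher in PB and an adjusted p of 0.0540 in edgeR. Its adjusted p fell below 0.05 in 8 of the 41 fits that left out 1 animal, those without VEH animal 13, PB animals 3, 5, 12 or 13, or LEV animals 1, 5 or 8. Col7a1 gave -0.30 (adjusted p = 0.0774) and was called, among the fits that left out 1 animal, only in that without PB animal 10. Itgb1, the subunit common to most matrix-binding integrins, gave 0.10 (adjusted p = 0.0809), Col16a1 0.22 (adjusted p = 0.0934) and Itga8 0.19 (adjusted p = 0.0996, all edgeR). The rise after PB was therefore not shown to differ from the change after LEV for any of the 4 called members.

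The drug effects were also compared between the 2 series of animals. For PB no member differed (0.0689% of all tested transcripts did, edgeR), with 3 members at an unadjusted p under 0.05 (11.1% of all tested transcripts). For LEV 1 of 56 members (1.79%) differed, Itgb8, against 0.842% of all transcripts. Itgb8 codes for the beta subunit of a receptor that binds the latent form of transforming growth factor beta. In the first series its normalized counts were 106, 116 and 162 in VEH, 91.6, 118 and 125 in PB, and 53.1, 70.7 and 82.4 in the LEV group (lowest, median, highest). All 6 LEV animals of that series lay below every VEH and PB animal of it. In the second series the values were 83.5, 125 and 152 in VEH, 121, 139 and 166 in PB, and 115, 135 and 163 in LEV animals, and the groups overlapped. The LEV effect differed between the series by 0.99 ± 0.17 on the log2 scale (SE, adjusted p = 0.000734, edgeR), from -0.81 in animals 1 to 6 to 0.18 in animals 7 to 14. The call was lost with all 14 VEH animals, where the difference was 0.82 (adjusted p = 0.168), and the excluded animal had 248 normalized counts of Itgb8, above the 162 of the highest of the other VEH animals. Marker sums of the 6 LEV animals of the first series also stood apart from VEH. For astrocyte markers they were 38429 to 43259, against 44359 to 52082.5 in VEH animals of that series. For endothelial markers they were 4878 to 5285, against 4175 to 4763. In the second series the LEV and VEH ranges overlapped for both lists. The part of these levels in the Itgb8 values was not tested.

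**Figure D3:**
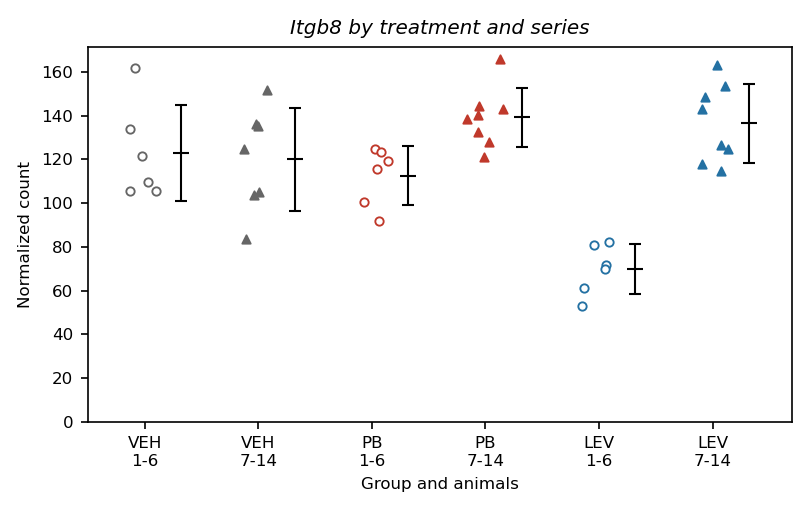
Normalized counts of Itgb8 (y axis) for each animal, by treatment and series on the x axis, with bars for the mean and SD. The 6 LEV animals of the first series sit between 53.1 and 82.4, below all VEH and PB animals of that series, while the groups of the second series overlap.

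The series themselves differed in 5 members at the fold limit (4.12% of all tested transcripts were called), with Itgb8 higher and Col27a1, Col5a1, Col7a1 and Col9a2 lower in the second series. Without the fold limit 11 members passed (19.6%, against 30.2% of all transcripts), among them Itgb1, which was 0.23 ± 0.03 higher (SE, adjusted p = 1.81e-08, edgeR). The summed level of skeletal muscle markers had medians of 492 (VEH), 485 (LEV) and 232 (PB) in the first series and 217, 225 and 197 in the second, and 3 of its 5 tested transcripts (Atp2a1, Myh4 and Acta1) were called lower after PB. With that level as a covariate, an alternative chosen after seeing the data, the same 4 members were called after PB, and their log2 fold changes lay between 0.32 and 0.91.

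How the members vary among the animals was described by their correlation with 4 marker lists. These were choroid plexus, leptomeningeal fibroblast, endothelial cell, and pericyte and smooth muscle cell markers. Choroid plexus and leptomeninges lie beside the hippocampus, and whether they were dissected with it was not tested. Mean log2 levels were used after removing the means of treatment and series, so that the points share library size and composition. The mean over 6 transcripts of fibrillar collagens (Col1a1, Col1a2, Col3a1, Col5a1 and Col5a2) followed leptomeningeal fibroblast markers, with Pearson's r = 0.950 and Spearman's rho = 0.906 over 41 animals, r = 0.921 without the 2 animals farthest from the median, and r = 0.964 and 0.910 within the 2 series. They also followed pericyte and smooth muscle markers (r = 0.846, rho = 0.844), and less closely endothelial (r = 0.477, rho = 0.240) and choroid plexus markers (r = 0.464, rho = 0.483). Both entries of Col1a2, equal in 40 of 42 animals, are among these 6 transcripts, so that Col1a2 counts 2 times in the mean. Basement membrane transcripts (Col4a1, Lama4, Lamc1 and Nid2) followed pericyte and smooth muscle markers (r = 0.773, rho = 0.774), leptomeningeal markers (r = 0.768, rho = 0.650) and endothelial markers (r = 0.714, rho = 0.584), with r = 0.389 for choroid plexus markers. The mean of 15 integrin transcripts followed choroid plexus markers (r = 0.791, rho = 0.784, with r = 0.761 and 0.841 within the series). Its r was 0.389 for leptomeningeal, 0.227 for pericyte and smooth muscle and -0.02 for endothelial markers. Of these 15, Itgb6 varied most, with an SD of 86.26% of its mean in VEH pups, against 27.96% for Itga1, the next highest. Itgb6 can therefore weigh more in the integrin mean than the others. The mean without Itgb6 was not computed, so that the relation is not shown for integrins as a group. The 3 groups and 4 lists gave 12 relations, which are given as a description, without p values.

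Among single members, 56 transcripts and 4 marker lists gave 224 relations. Permutation tests with 100000 resamples were adjusted by Benjamini-Hochberg over the 224 relations, and a relation passed if both r and rho had an adjusted p under 0.05. In the positive direction 26 members passed with choroid plexus markers and 25 with leptomeningeal markers. With pericyte and smooth muscle markers 24 passed, and with endothelial markers 5. In the negative direction 1 member passed, with endothelial markers. The share of all tested transcripts that would pass was not computed, so that these counts do not set the members apart from other transcripts. Col8a1 followed choroid plexus markers most closely (r = 0.954, rho = 0.943, both permutation p = 1e-05, the lowest value 100000 resamples allow, with adjusted p = 7e-05 for r and 0.000102 for rho; r = 0.953 without the 2 farthest animals, 0.945 and 0.964 within the series). Lama5, a laminin chain of epithelia and vessels, had r = 0.892 with the same list, and Itgb6, a subunit of epithelial integrins, r = 0.842. Col3a1 followed leptomeningeal markers (r = 0.923, rho = 0.859, both permutation p = 1e-05, the smallest possible, adjusted p = 7e-05 and 0.000102; 0.878 without the 2 farthest animals, 0.951 and 0.849 within the series). Col4a1 followed endothelial markers (r = 0.785, rho = 0.706, both permutation p = 1e-05, the smallest possible, adjusted p = 7e-05 and 0.000102; 0.749 without the 2 farthest animals, 0.890 and 0.737 within the series).

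The 4 members called after PB differed in these relations. Col27a1 followed choroid plexus markers (r = 0.652, rho = 0.649, permutation p = 1e-05, the smallest possible for r, and 2e-05 for rho; adjusted p = 7e-05 and 0.000172; r = 0.619 without the 2 farthest animals, 0.802 and 0.562 within the series) and leptomeningeal markers (r = 0.612). Col11a1 followed choroid plexus markers as well (r = 0.540, rho = 0.604, permutation p = 0.00024 and 3e-05, adjusted p = 0.00119 and 0.000232; r = 0.495 without the 2 farthest animals, 0.465 and 0.588 within the series). The r of Smoc2 was between -0.23 and 0.09 and that of Col16a1 between -0.13 and 0.15 with the 4 lists, and no list passed for either. With the choroid plexus level as a covariate, all 4 members were still called after PB, with log2 fold changes of 0.36 for Col27a1, 0.35 for Col11a1, 0.94 for Smoc2 and 0.36 for Col16a1 (adjusted p = 0.0109, 0.0122, 0.0118 and 0.00605, edgeR). With the leptomeningeal level as a covariate the same 4 were called.

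**Figure D4:**
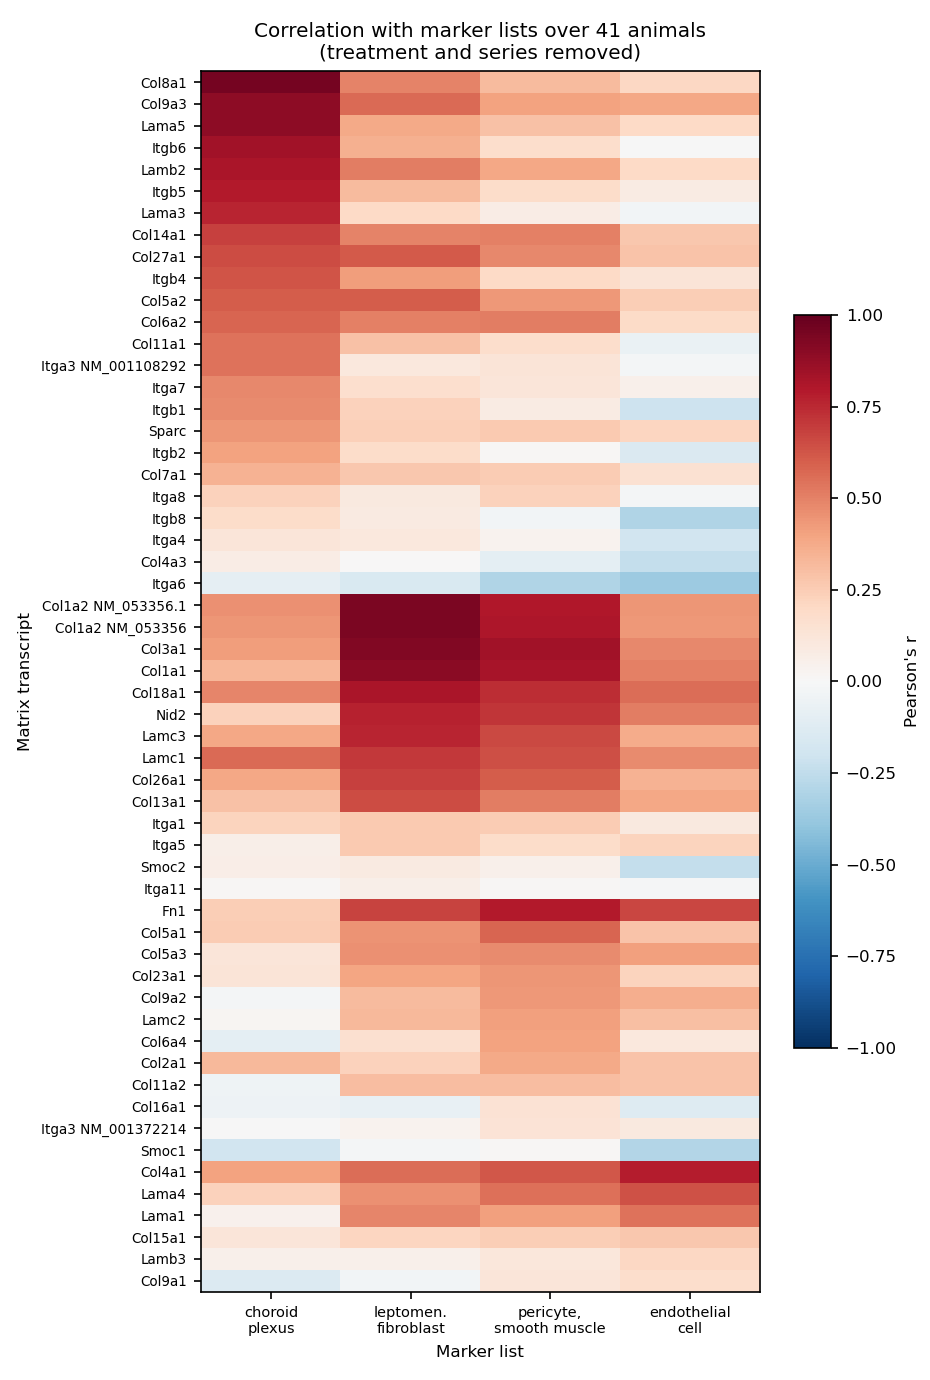
Pearson's r (color, from -1 to 1) of each of the 56 tested transcripts (rows) with 4 marker lists (columns) over 41 animals, after removing treatment and series means. Col8a1 and Col9a3 are the strongest with choroid plexus markers, Col1a2 and Col3a1 with leptomeningeal markers, and Smoc2 and Col16a1 are pale in all 4 columns.

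Other genes of the matrix were taken from 5 lists. None of the 28 tested transcripts of collagen synthesis and crosslinking was called between PB and VEH, nor were the 29 of integrin cytoplasmic partners, the 25 of matrix proteases and their inhibitors or the 22 of matrix receptors other than integrins. Without the fold limit, 5.39% of all tested transcripts and the same 4 members passed after PB. In the lists, P3h3, a collagen prolyl hydroxylase, and Bmp1, the procollagen C-proteinase, were higher (log2 fold changes 0.28 and 0.21), as were Flna and Tns3, which link integrins to actin, and Cd44, a hyaluronan receptor. Ptk2b, a kinase related to focal adhesion kinase, and Gpc5, a glypican, were lower. In the list of other matrix glycoproteins 2 of 41 transcripts were called higher (0.605% of all tested transcripts were called), Thbs3, a thrombospondin (0.38 ± 0.10, SE, adjusted p = 0.0194), and Spp1, osteopontin (0.75 ± 0.22, adjusted p = 0.0322, both edgeR). Without the fold limit, Agrn, agrin of basement membranes, was higher (0.14), and Sparcl1, a relative of Sparc (-0.13, adjusted p = 0.00367), Spock3, a testican (-0.22, adjusted p = 0.0138), and Egfl6 (-0.26, adjusted p = 0.0370, all edgeR) were lower. The median log2 fold change of these 41 was 0.11, against 0.00 over all tested transcripts. After LEV none of the 5 lists had a called transcript. Between PB and LEV, Tnc, tenascin-C of astrocytes and neural precursors, was 0.41 ± 0.07 higher after PB (adjusted p = 0.00053, same test), with group means of 1599 normalized counts in PB, 1205 in LEV and 1388 in VEH.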

How the data were processed

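Hippocampal RNA from 42 animals was sequenced, with 1 library per animal. Per the labels and the study's methods, the authors aligned reads to rn6 with STAR 2.7.3a and estimated counts per RefSeq transcript in Partek, and they deposited these estimated counts without normalization (13.7% of the values differ from the whole number nearest to them, with no tolerance). Strand was not stated to be used in counting. A deposited table of the authors' own DESeq2 comparisons (fold changes and p values) was not used. Members and lists were chosen with earlier results of these data known.

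The counts were made whole by rounding and then tested with edgeR 4.0.16 under R 4.3.3 (TMM, filterByExpr by treatment, glmQLFit and glmQLFTest), which kept 13062 of 15516 transcripts, with effective library sizes of 9588079 to 13786160. One model held the 3 treatments and, as an additive term, the series (the form of the sample code, the only batch-like label; the labels mention orders of animals but do not say which animals belong to which). Benjamini-Hochberg adjustment ran over all tested transcripts, and calls required both an adjusted p below 0.05 and at least a 1.25-fold change. Treatment-by-series terms were tested in the same way without the fold limit. Correlations used log2 CPM with a prior count of 2. The p values measure the spread between animals, which are separate pups. Named were members past the adjusted threshold, the 5 with the smallest p in each comparison, and the 3 largest rises and falls for each drug. The part of the rule on levels per transcript length was not applied, because lengths were not used here, and any further transcript was named with its values in view. Litters were not entered in the model, because the sources used here do not tie animals to litters, and animal numbers were not taken to mark a litter. Alternatives were DESeq2 1.42.0, its size factors, other filters, no series term, either series on its own, a block for the animal number, the excluded VEH animal kept, 2 groups, counts per symbol, marker levels as covariates and each animal left out.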

Additional observations from a re-analysis of the deposited data

Results flagged for a closer look

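The LEV effect on Itgb8 differed between the series of animals, by 0.99 on the log2 scale, in the test of that difference itself. Itgb8 was 1 of 56 tested members (1.79%), while 0.842% of all tested transcripts passed that test. All 6 LEV animals of the first series were below all VEH animals of that series, and the call was lost when the excluded VEH animal was added.

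The VEH animal that the labels mark as excluded was in no main comparison. The study left it out because its read coverage differed from that of the other samples. In it, 30 of the 61 member transcripts lay above the highest of the other 13 VEH animals and 2 (Sparc and Col27a1) below the lowest, while 29 were within their range. The share of all transcripts outside that range was not computed, so that these counts do not set the members apart from other transcripts. Col1a1 had 2817 normalized counts in this animal, against at most 1856 in the other VEH animals, Lamb2 1972 against 996 and Lama5 762 against 314.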

How the results depend on the processing

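The 4 members called after PB remained 4 with the size factors of DESeq2, without a filter, with all 14 VEH animals, with the 2 groups alone, with counts summed per symbol and with the choroid plexus, leptomeningeal or skeletal muscle level as a covariate (the last chosen after seeing the data). DESeq2 called 3 and gave no adjusted p for Smoc2, a mean of at least 50 counts left 3 because Smoc2 was not tested, and no series term left 3, without Col27a1. In single series, with fewer animals, 0 were called in animals 1 to 6 and 2 (Smoc2 and Col11a1) in animals 7 to 14, with log2 fold changes in the first of 0.37 for Col16a1, 0.87 for Smoc2, 0.19 for Col11a1 and 0.44 for Col27a1. Leaving out 1 animal at a time gave 3 to 4 calls after PB, 0 to 0 after LEV and 0 to 1 between PB and LEV. The shares of all tested transcripts called in these fits, and in those below, were not computed, so that the counts describe the members only.

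After LEV, 1 member (Itgb8, -0.81) was called in animals 1 to 6 alone. Between PB and LEV, 1 was called in animals 1 to 6 alone (Itgb8), 1 with counts summed per symbol (Smoc2) and 1 with the choroid plexus covariate (Col9a3). With all 14 VEH animals, 0 members kept a LEV effect that differed between the series. In animals 7 to 14 alone the sign turned for Itga1 (0.084 after PB, 0.043 after LEV), Col7a1 (0.062 after PB) and Itgb8 (0.18 after LEV). The correlation of integrin subunits with endothelial markers was 0.16 for animals 1 to 6 and 0.12 for animals 7 to 14. The causes of these changes were not tested.

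The animal number as a replicate block left the counts at 4, 0 and 0. Correlations of same-numbered animals were between -0.27 and 0.33 for PB and VEH, and over 0.1 in 3 of 13 pairs, so that the number was not taken as a pairing. The groups share litters that the labels do not name, and a fit by litter was not made. Members with few counts, such as Smoc2 and Col8a1, have wide intervals.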
